A study of Cricetulus griseus with 24 samples.

Results

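The exponential-phase transcriptomes of an antibody-producing Chinese hamster ovary (CHO) cell line before and after methotrexate (MTX) amplification were compared, with the question of which functions moved with amplification and high production. The comparison used 11 of the 24 libraries of the series, chosen by their labels: 3 libraries of A1, each from a culture of its own number, and 8 libraries of A0, which were summed by culture number into 4 cultures. A0 is an IgG-producing DG44 clone with low productivity, made with 1 plasmid for the heavy chain and another for the light chain and neomycin resistance, and selected in G418. A1 is its progeny, taken through stepwise MTX amplification to higher productivity. Both lines therefore carry the same pair of plasmids and the same G418 selection, with the antibody genes under the CMV promoter, and each line is 1 clone. Cells grew in serum-free suspension batch culture and were taken in mid-exponential phase. A0 cultures 1 and 2 each have a first library and a library labelled RLT, and A0 cultures 3 and 4 a first library and a library labelled Duplicate. The MTX level in the cultures that were sequenced is not given in the sources used here.

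MTX is an antifolate. It lowers the supply of the reduced folates that cells need for thymidylate and purines, and cells that survive rising doses may carry more copies of the transfected genes, take up less of the drug or pump more of it out. A secreted antibody enters the endoplasmic reticulum (ER) through the Sec61 channel, is folded by chaperones such as BiP and GRP94 and by protein disulfide isomerases, receives N-glycans, and leaves for the Golgi in coated vesicles. Chains that fail to fold are returned to the cytosol and degraded by the proteasome, and the unfolded protein response adjusts these steps to the load.

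Counts on genes ranged from 23065838 to 26584337 per A0 culture and from 11823294 to 13060749 per A1 culture. Values below are CPM, counts scaled to library size after TMM normalization, and fold changes and adjusted p-values come from edgeR's quasi-likelihood test across all tested genes with Benjamini-Hochberg adjustment. Genes "rose" or "fell" in A1 where the adjusted p was under 0.05, and others are given by value only. The CHO markers looked at, vimentin and galectin-1 among them, summed to 4898 to 6102 CPM in A0 and 4808 to 5573 CPM in A1. Markers of leukocytes, endothelium, liver, epithelium and nerve summed to 3.52 to 4.44 CPM in A0 and 4.21 to 4.74 CPM in A1, with Lyz and Krt14 at 0 counts in every culture. These are bulk libraries, so a lower level in some cells and fewer cells with the transcript cannot be told apart. The A0 libraries did not form a uniform group. Over genes, the first libraries of cultures 1 and 2 differed by a chi-square per degree of freedom of 2.43, whereas the RLT library of culture 1 differed from the first library of the same culture by 26.8, and many genes sat at 1 level in A0 cultures 1 and 2 and at another in cultures 3 and 4. The share of reads that did not align was 3.85% ± 0.76 in A0 and 8.05% ± 0.58 in A1, and its part in the results was not tested. Each line is compared over cultures as labelled, so the p-values measure only the spread between these cultures, which may be technical. Of the 90 counts of risen or fallen members given by the 45 lists, 51 moved by over 1.5 times when 1 of these pairs alone stood for A0, 17 when only the first libraries did, and 65 when 1 culture or another was left out. The moved counts are given for some lists and not for every list, so a count given alone may not be stable. All counts are to be read beside the shares of all genes with a mean of 5 CPM or more, which moved too. These were 27.3% risen and 28.1% fallen against A0 cultures 1 and 2, and 17% and 20.7% against cultures 3 and 4. The first libraries alone gave 23% and 21%. Leaving out 1 A1 culture gave 10.8% to 11.8% risen and 12.4% to 13.8% fallen. Leaving out 1 A0 culture gave 13.8% to 21.5% and 16.2% to 23.9%.

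Of 19946 genes tested, 25.9% passed, with 12% higher and 13.8% lower in A1. Among the 10394 genes with a mean of 5 CPM or more over all cultures of both lines, 38% passed, 18.2% higher and 19.8% lower. These last shares are the background for the gene groups below when all cultures are used. The cultures of the lines did not overlap for 46.6% of these genes. Most changes were small: the median size among the genes that passed was 0.49 on the log2 scale, and 145 genes rose and 163 fell by 2-fold or more. The 45 gene lists hold 1352 memberships, of which 1173 were tested at a mean of 5 CPM or more, 69 were tested below it, 26 were not tested and 84 were not matched in the table. The well-expressed members were 1156 distinct genes, of which 20.8% rose and 18.5% fell, close to the background, so the lists together did not lean one way. The plot of list shares shows all 45, and the text takes them by role. For each list the 2 largest rises and falls were named by rule, and further members were chosen after their values were seen.

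**Figure D1:**
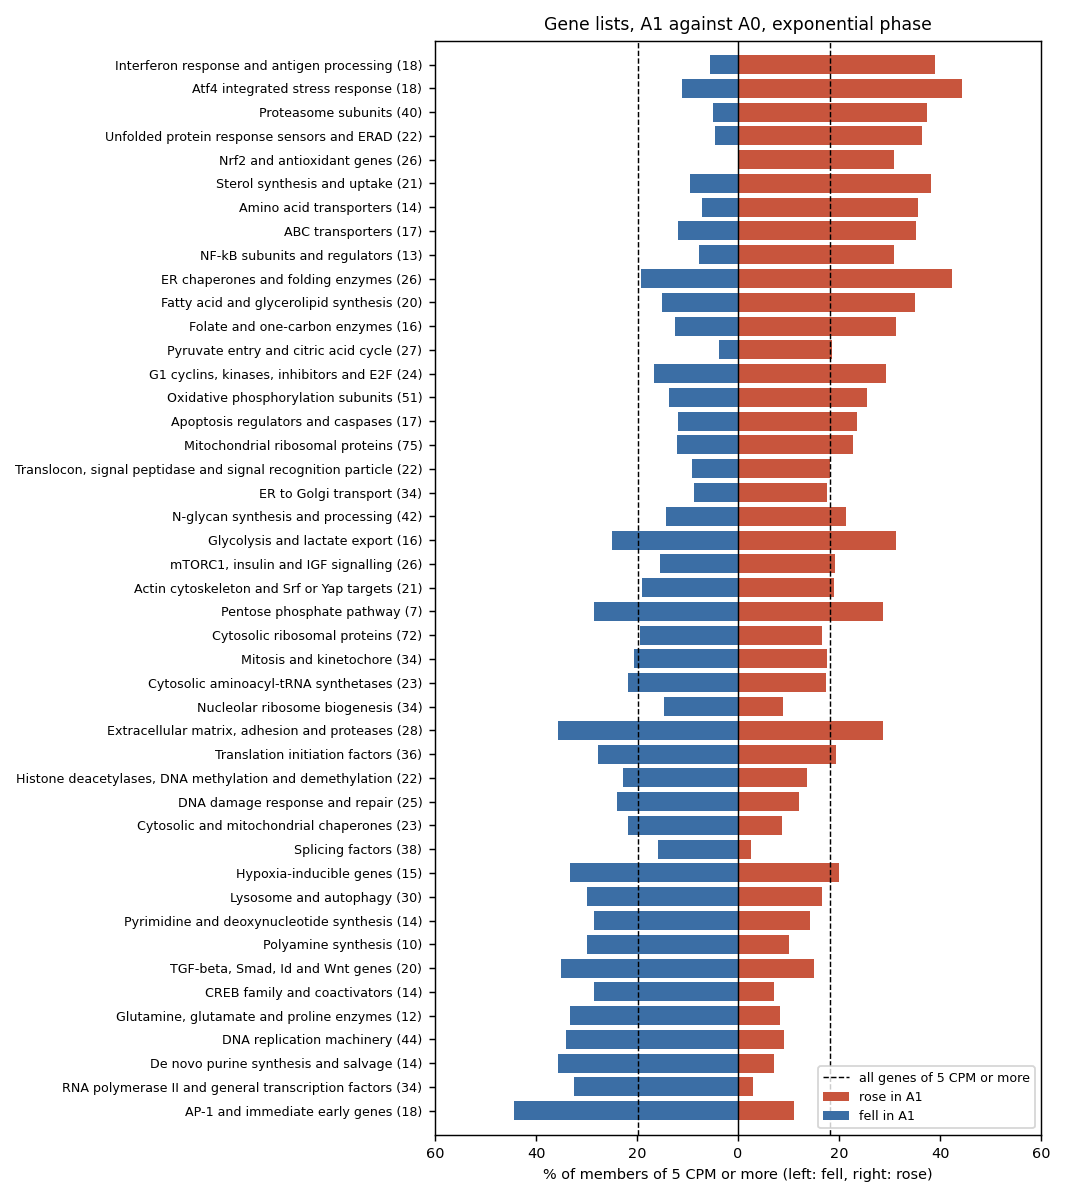
Share of the members of each gene list, in percent of members with a mean of 5 CPM or more (number in brackets), that rose (bars to the right) or fell (bars to the left) in A1 against A0 in exponential phase. Dashed lines mark the shares among all genes of 5 CPM or more, 18.2% and 19.8%. Lists are ordered by the difference between both shares, with the interferon list (7 of 18 rose, 1 fell) at the top and the AP-1 list (2 rose, 8 of 18 fell) at the bottom.

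Genes for the transport of folates and MTX differed between the lines, and transcripts of the antibody chains were not analysed here. Slc46a1, the proton-coupled folate transporter, had 9.04, 9.05, 7.22 and 8.76 CPM in A0 and 14.5, 13.8 and 14 CPM in A1, without overlap (log2 fold change 0.73 ± 0.13, SE; adjusted p = 0.00077; n = 4 and 3). Slc19a1, the reduced folate carrier through which MTX enters cells, rose as well, from 34.6 ± 6.14 to 47.3 ± 4.24 CPM (SD; log2 0.45, adjusted p = 0.017). Among the 17 well-expressed ATP-binding cassette transporters, 6 rose and 2 fell (35.3% and 11.8%). Abcc1, an efflux pump for drug conjugates and glutathione, had 62.4, 66.5, 74.3 and 81.4 CPM in A0 and 193, 193 and 199 CPM in A1, a 2.74-fold rise. Abcc3, a related organic anion pump, rose from 22.6 ± 3.55 to 59.1 ± 1.14 CPM, 2.61-fold. Abcc4, which also exports organic anions, went the other way, from 298 ± 24.4 to 183 ± 14.6 CPM (log2 -0.70, adjusted p = 0.0001). Most genes next to Abcc1 and Abcc4 moved the same way as each of them, as given below with the order of genes.

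The folate enzymes did not move in 1 direction. Of 16 well-expressed members of the folate list 5 rose and 2 fell. Without A1 replicate 1 or 3 the list held 2 rises and 0 falls. Mthfd1, the trifunctional cytosolic enzyme, rose by 0.28 on the log2 scale. Thymidylate synthase, Tyms, whose reaction consumes methylene tetrahydrofolate, had 284, 264, 216 and 240.2 CPM in A0 and 192, 194 and 189.9 CPM in A1, a fall without overlap (log2 -0.39, adjusted p = 0.0096). Mthfd2, the mitochondrial enzyme, fell from 320.0 ± 69.1 to 231 ± 13 CPM with overlapping cultures.

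Purine synthesis genes leaned downward with all cultures, and less so in some other fits. In the purine list 1 of 14 genes rose and 5 fell (7.14% and 35.7%), with a median log2 fold change of -0.20 beside -0.01 for all well-expressed genes. Ppat, the first committed enzyme of purine synthesis, had 104, 106, 112 and 72.3 CPM in A0 and 53.5, 49.3 and 47.9 CPM in A1. The lowest A0 culture, number 4, was still above all of A1, and the fall was 1.96-fold (log2 -0.97 ± 0.13, adjusted p = 8.8e-05). Prps2, Atic, Hprt1 and Impdh2 also fell, by 0.27 to 0.41 on the log2 scale. The single rise was Aprt, which salvages adenine, from 58.6 ± 7.86 to 115 ± 1.58 CPM, 1.96-fold. In the pyrimidine and deoxynucleotide list 2 of 14 rose and 4 fell, and the summed level overlapped between the lines. Cad, the first enzyme of the pathway, and Dtymk rose (log2 0.47 and 0.37), and Umps, the last, fell (log2 -0.52). Rrm2, the regulatory subunit of ribonucleotide reductase, fell from 447 ± 89.7 to 309 ± 7.88 CPM. Against A0 cultures 3 and 4 alone, 3 of the 14 purine genes fell, where 20.7% of all well-expressed genes did. Against cultures 1 and 2 alone 7 did, where 28.1% of all well-expressed genes did. The falls numbered 2 without A1 replicate 1 or A1 replicate 3, and 3 without A0 replicate 2. In these fits 13.2%, 12.4% and 16.2% of all well-expressed genes fell.

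Chaperones of the ER rose in part. Of 26 well-expressed chaperones and folding enzymes 11 rose and 5 fell (42.3% and 19.2%). Their summed level was 16120, 15620, 16020 and 16270 CPM in A0 and 20210, 22600 and 20460 CPM in A1. The A0 sums lay within a narrow band and every A1 sum was above it, 1.32-fold higher on average. Most of that rise, from a mean of 16010 to 21090 CPM, came from Hsp90b1 and Hspa5. Their means rose by 1922 and 1534 CPM. Sums carry no test here. Hsp90b1, which encodes GRP94, had 2687, 2765, 3035 and 2985 CPM in A0 and 4529, 5355 and 4487 CPM in A1. Its log2 fold change was 0.74 ± 0.10 (adjusted p = 5.6e-05). Hspa5, which encodes BiP, the chaperone that holds the antibody heavy chain until it meets a light chain, had 2467, 2427, 2393 and 2593 CPM in A0 and 3751, 4524 and 3736 CPM in A1 (log2 0.70 ± 0.09, adjusted p = 8.7e-05). In both genes A1 culture 2 was the highest of the 7, and neither gene had overlapping cultures.

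Other members of the list rose as well. Pdia3, a disulfide isomerase for glycoproteins, rose from 797 ± 31.6 to 1233 ± 54.0 CPM, and Calr, the lectin chaperone it works with, from 1802 ± 132 to 2313 ± 65.6 CPM. Hyou1, the nucleotide exchange factor for BiP, rose 1.32-fold, and the small BiP partners Sdf2l1 and Creld2 rose 1.56-fold and 1.5-fold. Dnajc10, a reductase that serves the degradation of misfolded chains, rose from 233 ± 45.7 to 454 ± 18.3 CPM. The rise was not shared by every folding factor. P4hb, the most studied disulfide isomerase, had 1353 ± 96.6 CPM in A0 and 1388 ± 20.8 CPM in A1, and Canx 1213 ± 41.4 and 1231 ± 59.8 CPM, log2 differences of 0.04 ± 0.09 and 0.02 ± 0.09. Dnajc3, a BiP co-chaperone that also restrains the PERK kinase, fell from 245 ± 33.4 to 157 ± 9.45 CPM, and Erp29, a folding factor without a disulfide active site, from 201 ± 17.6 to 130.4 ± 3.08 CPM. The rises numbered 12 against A0 cultures 1 and 2 and 11 against cultures 3 and 4. Leaving out single cultures left 9 to 12 rises in the group, and the falls numbered 2 or 3 without A0 replicate 3 or any 1 A1 replicate.

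**Figure D2:**
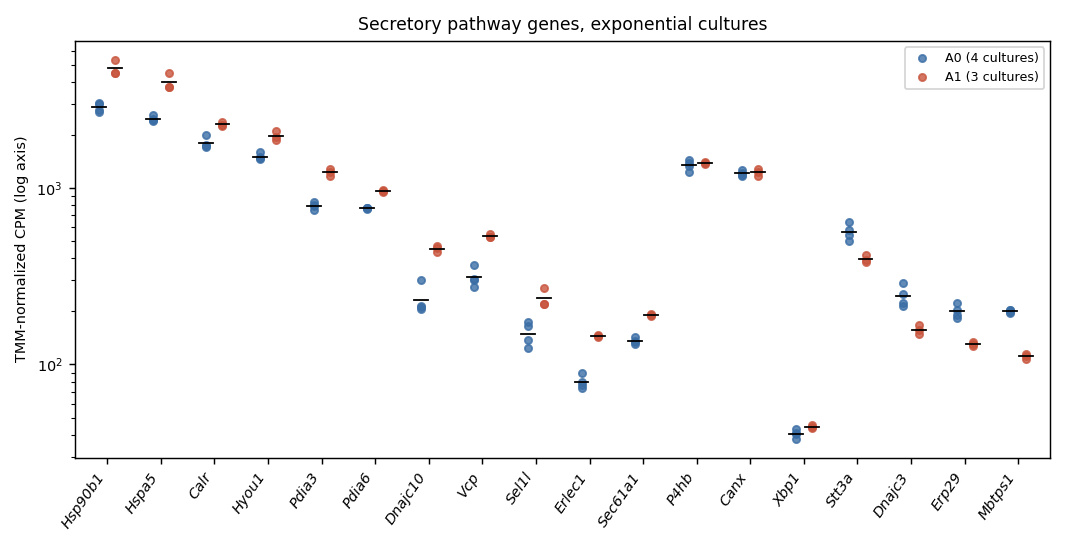
TMM-normalized CPM (log axis) of 18 secretory pathway genes in each exponential culture, A0 in blue (4 cultures) and A1 in red (3 cultures), with a black bar at each group's mean. Hsp90b1 and Hspa5 sit highest and separate without overlap, P4hb and Canx overlap between the lines, and Dnajc3, Erp29 and Mbtps1 at the right are lower in all 3 A1 cultures.

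Genes of ER-associated degradation (ERAD) rose beside the chaperones. Of 22 well-expressed genes of this list 8 rose and 1 fell (36.4% and 4.55%). Against A0 cultures 3 and 4 alone 7 rose, and the number was 4 without A1 replicate 2 and 5 without A1 replicate 1 or 3. Sel1l and Syvn1, scaffold and ligase of the main ERAD complex, rose by 0.66 and 0.28 on the log2 scale. Syvn1 lost its call without A0 replicate 2 or any 1 A1 replicate (adjusted p at most 0.109). Sel1l had 124, 137, 165 and 174 CPM in A0 and 219, 272 and 220.4 CPM in A1. Erlec1, which recognises trimmed glycans on misfolded chains, and Edem2 rose 1.81-fold and 1.63-fold, and Herpud1 1.46-fold. Vcp, the ATPase that pulls chains out of the membrane, rose from 312 ± 38.1 to 536 ± 10.4 CPM. The sensors Atf6, Ern1 and Eif2ak3 had log2 fold changes of -0.19, -0.08 and -0.32 and did not pass. Eif2ak3 was close to the threshold (adjusted p = 0.0508) and was called lower under 7 of 16 alternatives, among them the fit without A0 replicate 1 (adjusted p = 0.0138). Xbp1, the transcription factor spliced by Ern1, had 40.4 ± 2.08 and 44.3 ± 0.986 CPM; splicing cannot be read from gene counts. The 1 fall was Mbtps1, the protease that cleaves Atf6 and the sterol factors in the Golgi, with 196, 199, 204 and 202 CPM in A0 and 107, 112 and 115 CPM in A1 (log2 -0.85 ± 0.08, adjusted p = 4.3e-06). All 4 A0 cultures lay within a few CPM of each other and far above all of A1.

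The steps before and after folding had shares of rises near the background. In the translocon and signal recognition list 4 of 22 genes rose and 2 fell, and the summed level overlapped between the lines. Sec61a1, the channel itself, rose from 136 ± 5.18 to 191 ± 2.65 CPM and Tram1, which helps chains into the channel, from 119 ± 4.84 to 188 ± 7.70 CPM. Ssr4 and Srp72 fell by 0.45 and 0.28 on the log2 scale. Against A0 cultures 1 and 2 alone 9 genes of this list fell, where 28.1% of all well-expressed genes did. In ER to Golgi transport 6 of 34 rose, led by the coat subunit Copg1 (log2 0.71) and the cargo receptor Surf4 (log2 0.70), and 3 fell, Sec24c, Arcn1 and Arf4. In the N-glycan list 9 of 42 rose and 6 fell. Rpn1 and Rpn2, structural subunits of oligosaccharyltransferase, rose by 0.32 and 0.51, whereas Stt3a, its catalytic subunit for chains still entering the ER, fell from 567 ± 61.2 to 396 ± 21.1 CPM. Fut8, which adds the core fucose of IgG glycans, had a log2 fold change of -0.15 and did not pass.

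Lipid synthesis rose in part. Of 21 well-expressed sterol genes 8 rose and 2 fell (38.1% and 9.52%), with a median log2 fold change of 0.23. Among the risen genes were Hmgcs1 (log2 0.29), Pmvk (0.70), Mvd (0.61) and Fdps (0.50), which act in turn on the way from acetoacetyl-CoA to farnesyl diphosphate. Hmgcs1 lost its call under 8 of 16 alternatives and Mvd under 2, whereas Pmvk and Fdps kept theirs under all 16. Fdps had 576, 478, 437 and 500.4 CPM in A0 and 711, 665 and 736 CPM in A1. Scap, the escort of the sterol factors, was among the falls (log2 -0.35), and Srebf2, one of those factors, had a log2 fold change of 0.12 and did not pass. The count depends on which cultures stand for A0, with 13 rises against cultures 1 and 2 and 4 against cultures 3 and 4, and on single cultures, with 3 without A1 replicate 3, 5 without A1 replicate 1 or A0 replicate 2 and 13 without A0 replicate 4. In fatty acid and glycerolipid synthesis 7 of 20 rose and 3 fell, with Lpin1 (log2 0.76) and Acss2 (0.68) at the top and Pcyt1a and Elovl5 lowest.

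Proteasome genes leaned upward. Of 40 well-expressed proteasome genes 15 rose and 2 fell (37.5% and 5%), the median log2 fold change was 0.17, and the summed level was 7838, 6989, 6611 and 6435 CPM in A0 and 8028, 8088 and 8024 CPM in A1. Only A0 culture 1 came near the A1 sums. The rises numbered 21 against A0 cultures 3 and 4, 14 against cultures 1 and 2, and 23 when only the first libraries stood for A0, and the falls 2, 6 and 2. The rises included the core subunits Psmb3 (1.90-fold) and Psma7 (1.85-fold), the lid subunit Psmd11 (1.89-fold) and the activator Psme4, which had 99.96, 103, 153 and 158 CPM in A0 and 370.5, 389.7 and 352 CPM in A1. The inducible subunits Psmb8 and Psmb9 of the immunoproteasome rose by 0.77 and 0.52 on the log2 scale. Psmd9, an assembly chaperone, and Psme3, a nuclear activator, fell. Psma8, a variant core subunit known from germ cells, is not in the list but fell from 22.7 ± 2.80 to 1.77 ± 0.631 CPM. In the lysosome and autophagy list 5 of 30 rose and 9 fell, but against A0 cultures 1 and 2 alone 12 rose and 12 fell. Its rises numbered 2 without A1 replicate 3, 3 without A1 replicate 1 and 8 without A0 replicate 4. Hexa, Becn1, Lamp1 and Map1lc3b were among the falls (log2 -0.74, -0.61, -0.52 and -0.41), and Map1lc3a, at 5.81 ± 1.38 and 13.5 ± 2.58 CPM, and Sqstm1 (log2 0.45) among the rises.

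DNA replication genes leaned downward. Of 44 well-expressed members 4 rose and 15 fell (9.09% and 34.1%), and the median log2 fold change was -0.19. Their summed level was 5823, 5716, 5489 and 5190 CPM in A0 and 4718, 4754 and 4748 CPM in A1, without overlap. Gmnn, which restrains licensing of origins, had 231, 167, 179.5 and 132 CPM in A0 and 97.0, 97.2 and 107 CPM in A1. Orc6, of the origin recognition complex, fell from 39.2 ± 6.95 to 22.3 ± 1.51 CPM, the licensing factor Cdc6 from 55.2 ± 4.12 to 35.6 ± 3.20 CPM, and Mcm7, of the replicative helicase, from 595 ± 54.6 to 433 ± 7.63 CPM. Pold1, the catalytic subunit of polymerase delta, rose from 58.8 ± 3.20 to 83.8 ± 3.03 CPM, and Prim1 by 0.49 on the log2 scale. Mcm2, Mcm3 and Cdt1 had log2 fold changes of -0.08, 0.02 and 0.20 and did not pass. The falls numbered 12 against A0 cultures 3 and 4, 23 against cultures 1 and 2, and 9 to 18 when single cultures were left out, the lowest without A1 replicate 1, and the rises 1 or 2 without A0 replicate 2 or 3 or any 1 A1 replicate.

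**Figure D3:**
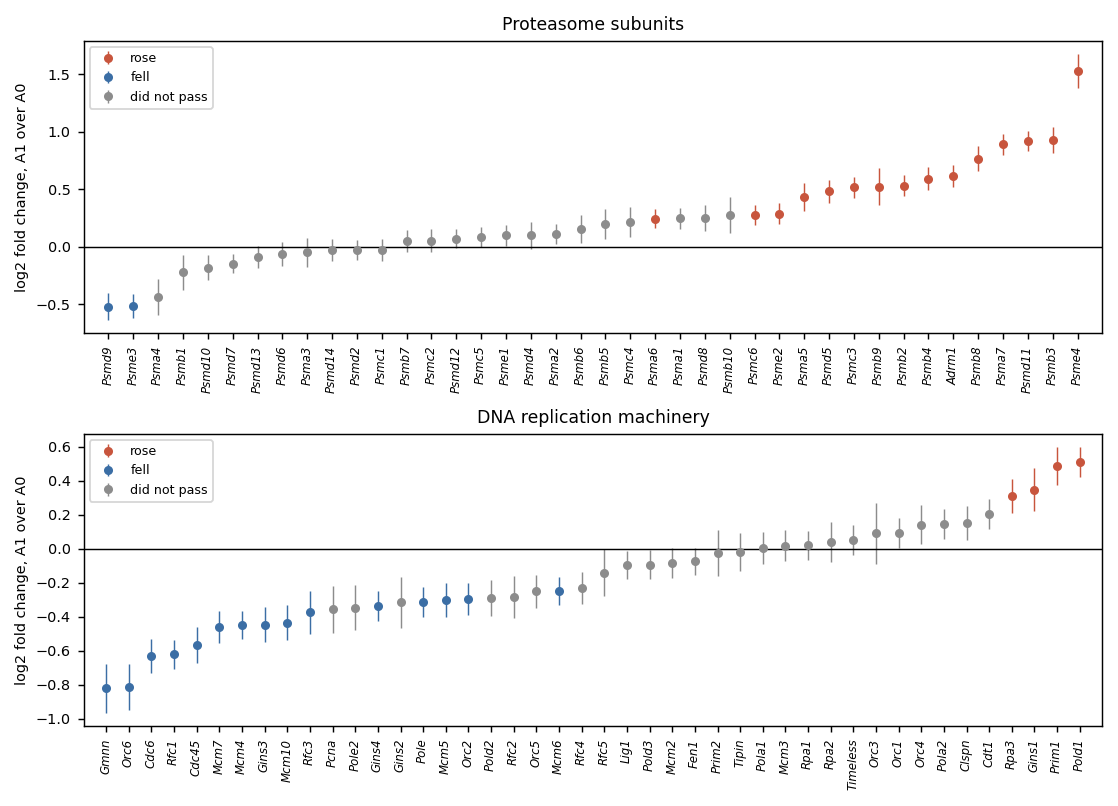
Log2 fold change of A1 over A0 with its standard error for each proteasome subunit (top) and each DNA replication gene (bottom) of 5 CPM or more, ordered by size, red where it rose, blue where it fell and grey where it did not pass. In the proteasome panel 15 genes are red and 2 blue, and in the replication panel 4 are red and 15 blue.

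Mitotic genes moved in both directions. In the mitosis list 6 of 34 rose and 7 fell, Cdk1 and Ccna2 had log2 fold changes of 0.03 and -0.04, and the summed levels of the lines overlapped. Cdc20 and Cenpe led the rises (log2 0.42 and 0.41) and Spc24 and Birc5 the falls (-0.69 and -0.50). The mitotic rises numbered 3 without A1 replicate 1 and 11 with the first libraries alone, and the falls 3 without A1 replicate 3. Among G1 regulators 7 of 24 rose and 4 fell. Ccnd2, cyclin D2, rose from 70.4 ± 8.06 to 129 ± 2.43 CPM and E2f1 from 54.0 ± 10.1 to 83.8 ± 5.09 CPM, while the repressors E2f4 and Rbl2, which act together in quiescent cells, fell by 0.83 and 0.80 on the log2 scale. In the DNA damage list 3 of 25 rose and 6 fell. The 3 rises (12%, beside 18.2% in the background) were Tp53inp1, Ccng1 and Mdm2. They are known targets of p53, but so are other members of the list that were not among the rises. The activity of p53 was not tested. Tp53inp1 had 4.27, 4.64, 3.04 and 4.02 CPM in A0 and 24, 33.0 and 25.7 CPM in A1, a 6.88-fold rise, whereas Cdkn1a, another target of p53, had a log2 fold change of 0.11 and did not pass. Among the falls were the checkpoint kinases Chek1 and Chek2, Brca2 and the mismatch repair genes Pms2 and Msh6 (log2 -0.33 to -0.58). In the apoptosis list 4 of 17 rose and 2 fell. Bcl2l1, which protects cells, and Bcl2l11, which opposes it, both rose (log2 0.59 and 0.65), and Xiap, an inhibitor of caspases, fell by 0.76.

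Stress genes that read amino acid and energy supply held some of the larger changes. Of 18 well-expressed genes of the Atf4 list 8 rose and 2 fell (44.4% and 11.1%). Sesn2, which senses leucine for mTORC1, had 8.16, 10.3, 10.5 and 10.5 CPM in A0 and 41.2, 47.2 and 51.2 CPM in A1, 4.72-fold higher (adjusted p = 6.6e-09). Trib3, a pseudokinase induced by ER stress, rose from 13.3 ± 1.30 to 41.2 ± 4.92 CPM, Ddit4 2.19-fold, and the stress factors Atf5 and Ddit3 from 148 ± 32.4 to 284 ± 18.4 CPM and from 23.9 ± 3.24 to 41.7 ± 8.06 CPM. Atf4 itself had 304 ± 89.9 and 306 ± 16.2 CPM. Not all of its known targets were among the rises: Asns, Psat1 and Chac1 had log2 fold changes of -0.23, 0.09 and 0.40 and did not pass. Slc7a11, also in the list, rose, with values below. Across the alternatives Atf4 ran from -0.31 to 0.40 and Asns from -0.73 to 0.52 on the log2 scale. Against A0 cultures 3 and 4 alone 11 genes of the list rose, and against cultures 1 and 2 alone 8 rose and 7 fell. In the transporter list 5 of 14 rose and 1 fell, with the glycine carrier Slc6a9 (log2 1.39) and the cystine carrier Slc7a11 first. Slc7a11 had 30.2, 33.0, 62.0 and 55.3 CPM in A0 and 91.3, 89.4 and 95.1 CPM in A1, above both A0 pairs. Among glutamine, glutamate and proline enzymes 1 of 12 rose, the proline-degrading Aldh4a1 (15.6 ± 2.68 to 46.2 ± 4.59 CPM), and 4 fell, including Gpt2 and Glud1 (log2 -0.77 and -0.49). Of 10 polyamine genes 1 rose and 3 fell, Odc1, the first enzyme, among the falls (log2 -0.41).

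Of 26 well-expressed genes of the Nrf2 and antioxidant list 8 rose and 0 fell by edgeR's test, beside 19.8% falls in the background, and 3 of the 26 were lower at an unadjusted p under 0.05. Leaving out single cultures gave 5 to 10 rises, with 5 without A0 replicate 2 or A1 replicate 3, and 0 to 2 falls. The first libraries alone gave 14 rises, DESeq2 gave 9 rises and 0 falls, and at most 3 falls came with A0 cultures 3 and 4 alone. Besides Abcc1 and Slc7a11, they were Prdx1, Nqo1, Gclm, Cat, Srxn1 and Sod2. Prdx1, a peroxiredoxin, had 473, 375, 370.4 and 465 CPM in A0 and 710.4, 737 and 727 CPM in A1, 1.72-fold higher. Nqo1, often used as a readout of Nrf2, had 59.0, 50.8, 71.9 and 97.8 CPM in A0 and 104, 101 and 104 CPM in A1, where A0 culture 4 came close to A1 (log2 0.56 ± 0.16, adjusted p = 0.019). It lost its call without A0 replicate 1 or 2 or any 1 A1 replicate (adjusted p at most 0.0899). Nfe2l2, which encodes Nrf2, had a log2 fold change of -0.53 and did not pass.

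Falls outnumbered rises among the immediate early genes, while lists of transcription genes differed. In the AP-1 list 2 of 18 rose and 8 fell (11.1% and 44.4%, median log2 -0.32). The falls numbered 11 against A0 cultures 1 and 2, 5 against cultures 3 and 4, 4 without A1 replicate 3 and 5 without A1 replicate 2. The strongest falls were feedback inhibitors of ERK signalling. Dusp1 had 47.1, 47.2, 57.8 and 45.7 CPM in A0 and 21.4, 16.7 and 18.6 CPM in A1 (log2 -1.39 ± 0.12, adjusted p = 1.2e-06), and Spry2 and Dusp5 fell 2.22-fold and 1.95-fold. Fosl1 and Egr1 fell by 0.68 and 0.65 on the log2 scale, and Ier3 and Klf4 rose by 0.75 and 0.62. Of 14 well-expressed CREB genes 1 rose, Creb3 (log2 0.75), and 4 fell, led by Pde4b and Atf2 (log2 -0.65 and -0.57). Of 13 NF-kB genes 4 rose and 1 fell, with the inhibitors Nfkbie and Nfkbia (log2 0.80 and 0.54) ahead of Rel and Nfkb1, and Ikbkb fell. The rises numbered 1 without A1 replicate 2, where Nfkbia, Rel and Nfkb1 lost their calls, and 1 against A0 cultures 3 and 4. Nfkbia was highest in A1 culture 2, at 120.1 CPM beside 76.4 and 67.5 CPM in the others. Of 34 genes of RNA polymerase II and its general factors 1 rose and 11 fell (2.94% and 32.4%), but the median was 0.01: the falls were a minority of subunits, Polr2j, Gtf2h3 and Gtf2a2 lowest at -0.57, -0.54 and -0.48, while Polr2a, the largest subunit, had 0.04 and Tbp -0.02. Leaving out A1 replicate 3 gave 5 falls, A1 replicate 1 gave 6, and A1 replicate 2 or A0 replicate 2 gave 7. In the chromatin list 3 of 22 rose, with Mbd1 and Hdac1 first (log2 0.51 and 0.40), and 5 fell, Cbx5 and Dnmt1 lowest (-0.82 and -0.48), but 8 rose and 6 fell against A0 cultures 1 and 2, and 3 rose and 9 fell against cultures 3 and 4. Of 38 splicing genes 1 rose, Snrpb (log2 0.46), and 6 fell, Snrpd1 and Hnrnpc lowest (-0.68 and -0.64); 16 fell against A0 cultures 1 and 2 and 1 against cultures 3 and 4.

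Antigen processing genes leaned upward. Of 18 well-expressed genes of the interferon list 7 rose and 1 fell (38.9% and 5.56%). Besides Psmb8 and Psmb9, Tapbp, which loads peptides onto class I molecules, rose from 97.5 ± 7.21 to 143 ± 7.10 CPM and B2m, the class I light chain, from 243 ± 10.6 to 305 ± 10.2 CPM. Irf1 rose by 0.65 on the log2 scale and Irf2, its antagonist, fell by 0.44, while Stat2 had 0.24 and did not pass. Without A1 replicate 2 the rises numbered 2, and without A1 replicate 1 or 3 they numbered 4.

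Genes of the cell surface and matrix moved both ways. Of 28 well-expressed members 8 rose and 10 fell (28.6% and 35.7%), with 5 rises without A1 replicate 1 and 6 falls without A1 replicate 2. Procr, the endothelial protein C receptor, gave the largest rise among named genes of 5 CPM or more: 6, 4, 6 and 1 counts in the A0 cultures and 389, 354 and 551 in A1, or 0.169 ± 0.0922 and 34.6 ± 6.44 CPM. It reached the mean of 5 CPM only through A1. Thbs1, thrombospondin, had 149.6, 154, 123 and 124 CPM in A0 and 362, 537 and 372 CPM in A1. Col4a1 passed the test on 1 culture: it had 45.3 CPM in A1 culture 1 and 0.34 and 0.30 CPM in the other two, below A0 (1.92 to 2.83 CPM). The falls were led by the urokinase gene Plau (7.50 ± 0.632 to 1.66 ± 0.833 CPM) and by Itga6, which had 64.6, 67.7, 134 and 114 CPM in A0 and 33.4, 33.3 and 34.6 CPM in A1. Plau met the 5 CPM mean only through A0. Plat, Timp2, Mmp14 and Plaur also fell. In the actin list 4 of 21 rose, Acta2 among them, and 4 fell, Amotl2 and Tagln lowest. In the TGF-beta and Wnt list 3 of 20 rose, Smad4 and Smad3 first (both log2 0.46), and 7 fell, Tcf7l2 and Axin2 lowest (-0.48 and -0.47). In the mTORC1 and insulin list 5 of 26 rose, Sesn2 and Akt1s1 first, and 4 fell, Igfbp4 and Depdc5 lowest (-0.75 and -0.42).

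Genes of energy metabolism moved in both directions. In glycolysis 5 of 16 rose and 4 fell, with 3 rises without A1 replicate 2 and 7 falls without A0 replicate 4. Aldoa and Gpi rose from 519.6 ± 40 to 775 ± 11.2 CPM and from 117 ± 8.94 to 175 ± 3.56 CPM, whereas Slc2a1, the glucose carrier, and Pfkfb3, which raises flux through phosphofructokinase, fell by 0.51 and 0.57 on the log2 scale. Ldha had a log2 fold change of -0.23 and did not pass. In the pentose phosphate pathway 2 of 7 rose, Pgd and Pgls, and 2 fell, Rpia among them. In the citric acid list 5 of 27 rose and 1 fell. Pdhb, of pyruvate dehydrogenase, had 67.3, 60.5, 62.5 and 57.7 CPM in A0 and 158, 162 and 153 CPM in A1, and Mpc1, the pyruvate carrier, rose by 0.81 on the log2 scale, with the kinase Pdk1 the 1 fall (log2 -0.39). Of 51 oxidative phosphorylation subunits 13 rose and 7 fell, with Atp5g1 and Ndufa2 first and Ndufa6 and Ndufb4 lowest. Of 15 well-expressed hypoxia genes 3 rose, led by Adm (4.34 ± 0.782 to 17.1 ± 2.80 CPM) and Ca9, and 5 fell, led by Egln1 and Bnip3l. Adm met the 5 CPM mean only through A1.

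The translation machinery could not be given 1 direction, because the count of rises and falls turned with the choice of A0 cultures or libraries. Summed cytosolic ribosomal protein transcripts were 55160, 47130, 41250 and 37910 CPM in A0 and 43170, 42900 and 42550 CPM in A1, so that A1 lay between A0 cultures 2 and 4. Of 72 members 12 rose and 14 fell, but 14 rose and 29 fell against A0 cultures 1 and 2, and 24 rose and 5 fell against cultures 3 and 4. The same held for 75 mitochondrial ribosomal proteins, with 17 risen and 9 fallen against all 4 A0 cultures, 14 and 25 against the first pair and 21 and 3 against the second, and for the oxidative phosphorylation subunits, with 13 and 19 against 20 and 3. The first libraries alone gave 23 and 13 for the cytosolic, 22 and 5 for the mitochondrial and 18 and 6 for the oxidative phosphorylation list. In that fit 23% of all well-expressed genes rose and 21% fell. The RLT libraries belong only to A0 cultures 1 and 2, so pair and library label cannot be told apart in the pair counts. Rps27a, a fusion of ubiquitin and a ribosomal protein, was outside this variation, with 382, 278, 238 and 328 CPM in A0 and 864, 829 and 853 CPM in A1 (log2 1.47 ± 0.13, adjusted p = 1.2e-06). Rps12 and Rps24 fell by 0.82 and 0.49, and in both the A0 cultures ran from 1201 and 2176 CPM in culture 1 to 507 and 1226 CPM in culture 4, close to the A1 means of 489 and 1132 CPM. Eef1a1, the most abundant elongation factor, had 7678, 6373, 5552 and 5063 CPM in A0 and 4815, 4802 and 4748 CPM in A1, a fall of 0.36 that lost its call when any 1 of A0 replicates 1 and 2 or the A1 replicates was left out (adjusted p at most 0.144). Reads of ribosomal protein genes are shared with processed pseudogenes, so their counts are uncertain. Of 36 initiation factors 7 rose, with Eif2s2 and Eif3i first, and 10 fell, with Eif2b1 and Eif4e lowest and Eif4g1, the scaffold of cap binding, from 1733 ± 161 to 1317 ± 30.2 CPM. Of 23 aminoacyl-tRNA synthetase genes 4 rose and 5 fell, Lars and Vars first and Kars and Aimp1 lowest. Of 34 nucleolar genes 3 rose and 5 fell, with Rrn3 and Noc2l first and Ubtf and Nolc1 lowest, and of 23 cytosolic and mitochondrial chaperones 2 rose, Dnajb1 and Dnaja1, and 5 fell, Cct8 and Stip1 lowest and Hspd1 from 2402 ± 111 to 1919 ± 128 CPM.

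The genes with the largest fold changes were of many kinds. Among named genes with a mean of 5 CPM or more and no overlap, the 12 largest rises included Procr, Grhl2 (log2 3.54), an epithelial transcription factor, Clcn5 (3.48), an endosomal chloride exchanger, Gprc5a (2.97), Tp53inp1, Lnx1 (2.28), Sesn2, Plac1 (2.24), Btg2 (2.19), an antiproliferative gene, and Fancl (2.17), the ubiquitin ligase of the Fanconi complex. Clcn5 had 8.31, 7.73, 8.6 and 7.19 CPM in A0 and 83.2, 92.7 and 91.5 CPM in A1, an 11.2-fold rise with little spread in either line. Procr, Grhl2, Gprc5a, Tp53inp1 and Lnx1 met the 5 CPM mean, taken over both lines, only through A1. Their A0 means were 0.169, 1.92, 3.79, 3.99 and 4.21 CPM. The 12 largest falls ran from Farp1 (log2 -6.16), Mmp12 (-5.10), macrophage elastase, Camk4 (-4.20), a calmodulin kinase, Ranbp3l (-3.97), Psma8, Tmprss11f (-3.68), Stau2 (-3.40), which binds RNA, Brinp3 (-2.84), Nr3c2 (-2.48), the mineralocorticoid receptor, and Hs6st3 (-2.39), a heparan sulfate sulfotransferase, to C1qtnf1 (-2.28) and Tmem108 (-2.23). Of these falls, all but Ranbp3l and Brinp3 had A1 means under 5 CPM and so met the mean only through A0. Several of the 12 genes fell from A0 levels that were themselves split. Farp1 had 22.8, 24.6, 52.0 and 49.0 CPM in A0 and 0.737, 0.338 and 0.456 CPM in A1, and Mmp12 had 75.5, 73.3, 41.4 and 39.6 CPM in A0 and 2.21, 1.18 and 1.60 CPM in A1. In both, either A0 pair lay far above A1.

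**Figure D4:**
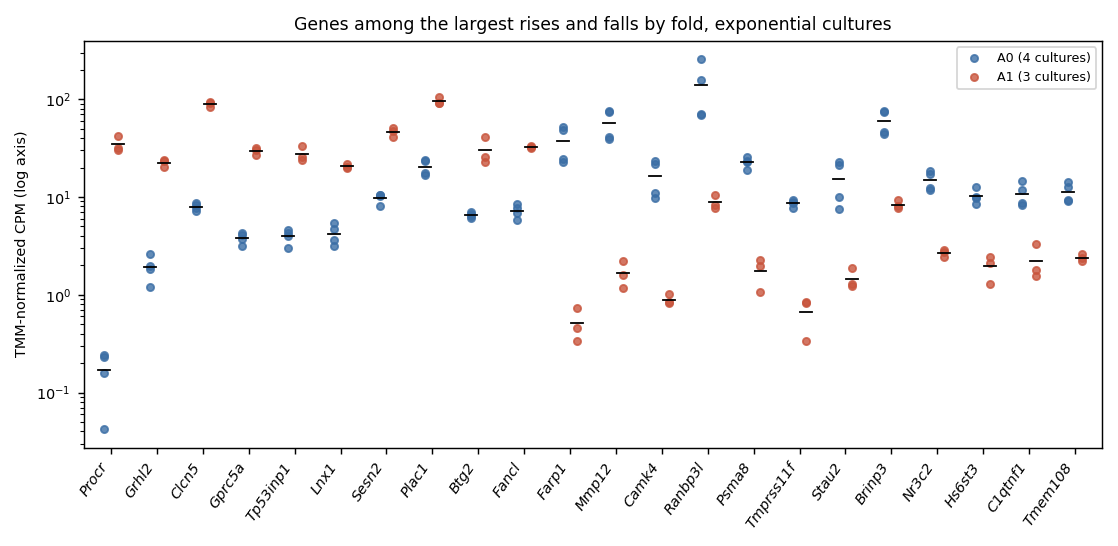
TMM-normalized CPM (log axis) of genes among the 12 largest rises (left, Procr to Fancl) and of the 12 largest falls (right, Farp1 to Tmem108) in each exponential culture, A0 in blue (4 cultures) and A1 in red (3 cultures), with a black bar at each group's mean. The genes were chosen to have no overlap between the lines. In Farp1, Mmp12, Camk4 and Stau2 the 4 A0 points split into 2 pairs.

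By difference in mean CPM the order was another. The 8 largest rises included Hsp90b1, Hspa5, Sptbn1, Rps27a, Kpnb1 and Calr. Among them Sptbn1 (a spectrin, 564 ± 142 to 1487 ± 36.9 CPM) and Rps27a are close neighbours in the genome. Kpnb1, an importin, rose 1.55-fold. The 8 largest falls were Eef1a1, Axl, Hspd1, Rps24, Eif4g1, Rps4x, Rps12 and Hnrnpc. Axl, a receptor tyrosine kinase, had 1666, 1766, 1018 and 1028 CPM in A0 and 882, 905 and 856 CPM in A1, another gene in which the second A0 pair lay close to A1.

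The changes were not spread evenly over the genome. Of the 10394 well-expressed genes 10021 were placed in order on 12 assembly sequences by the RefSeq gene table, 11 of them with enough genes for a running median. The assembly of that table differs from the one used for counting, so only order and sequence membership were used and nothing was tested. On the sequence that holds Eef1a1, Pkm, Actb and Rpl4, 3.29% of 1217 genes rose and 44.6% fell, and the median log2 fold change was -0.27. On the sequence that holds Hspa5, Gnas, Rps21 and Rpn2, 45.8% of 813 genes rose and 4.67% fell, with a median of 0.28. The background was 18.2% and 19.8%. Of all placed genes that fell, 27.7% were on the first of these sequences, and of those that rose, 20.4% were on the second. On the sequence with Flna and Rps4x, 7.27% of 344 genes rose and 27% fell, and the remaining sequences lay between 11.5% and 23% risen. The contrast held with either A0 pair: against cultures 1 and 2 alone 54.6% fell on the first sequence and 57.1% rose on the second, and against cultures 3 and 4 alone 46.1% and 45.4% did.

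**Figure D5:**
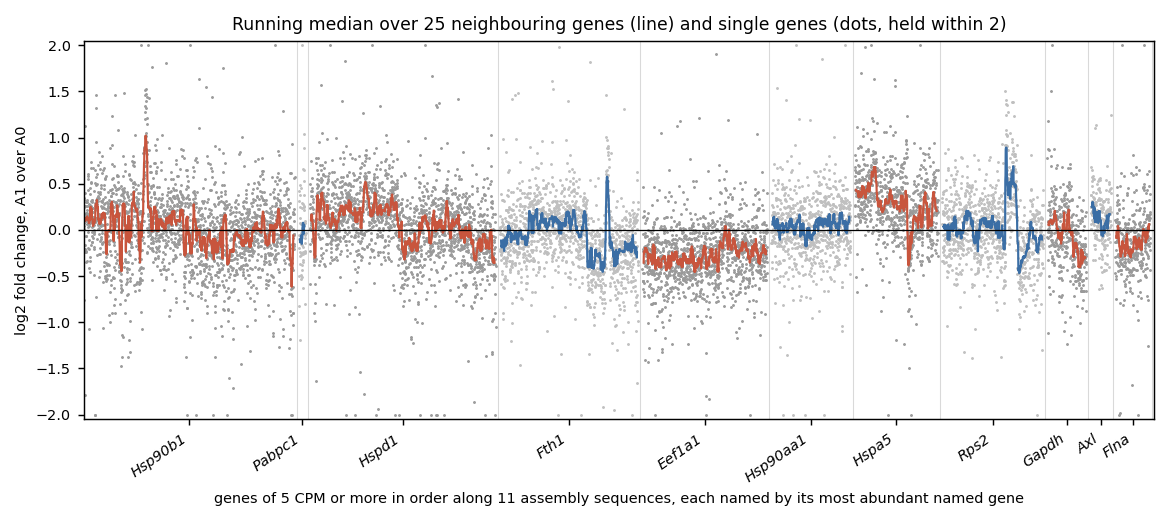
Log2 fold change of A1 over A0 for single genes of 5 CPM or more (grey dots, held within 2 on either side) and its running median over 25 neighbouring genes (lines) along 11 assembly sequences, each named on the horizontal axis by its most abundant named gene. The line stays below 0 over most of the sequence named by Eef1a1 and above 0 over most of that named by Hspa5, and peaks at 1.02 on the sequence named by Hsp90b1; line colours only alternate between sequences.

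Shorter stretches stood out further. The running median over 25 neighbours was 0.01 in the middle of its 9739 values, with 5% below -0.35 and 5% above 0.36. Its highest value, 1.02, came between Kiaa0430 and Cfap36, where 24 of 25 genes rose and the exception, Golim4, had a log2 fold change of 0.02. That stretch overlaps the longest run of risen genes, 28 from Rrn3 to Ccdc88a, with log2 fold changes from 0.48 to 1.53. It holds 7 members of the lists above, among them Abcc1, Pdhb, Erlec1, Psme4, Rrn3 and Rps27a, counted there as transporter, metabolic, ERAD, proteasome, nucleolar and ribosomal genes, and also Sptbn1. A run of 17 risen genes from Tpx2 to Ninl holds Trib3, Bcl2l1 and Srxn1, and a run of 14 from Psmd11 to Ap2b1 had a median of 1.02. The lowest window, at -0.62 between Tgds and Tmtc4, had 18 of 25 genes fallen, with Abcc4, Dnajc3, Hs6st3 and Farp1 among them. Mbtps1, Kars and Gabarapl2 shared a window with a median of -0.45 between Bcar1 and Hsdl1, and Cdc6, Top2a, Igfbp4 and Eif1 one of -0.47 between Mien1 and Rab5c. DNA copy number was not measured in these files, and the part of position in the changes of these genes was not tested.

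Set beside their surroundings, the leading secretory genes differed. At Hsp90b1 (log2 0.74) the running median of its neighbours was -0.12, and at Hspa5 (0.70) it was 0.06, whereas at Calr (0.36) it was 0.21. At Sesn2 (2.24) it was 0.06 and at Abcc3 (1.38) 0.63. By contrast, Erlec1 (0.86) and Psme4 (1.53) lay inside the run in which every gene rose. Among whole groups, 3 of the 11 risen ER chaperones, Hspa5, Pdia3 and Dnajc10, and 4 of the 15 risen proteasome genes were on the sequence with 45.8% rises. It holds 3 of the 26 chaperones, 6 of the 40 proteasome genes and 20.4% of all placed genes that rose. Of the 15 fallen replication genes 5, Mcm4, Mcm7, Cdc45, Rfc3 and Pole, were on the sequence with 44.6% falls. So were 4 of the 6 fallen DNA damage genes, Chek1, Chek2, Brca2 and Pms2, and 5 of the 11 fallen polymerase II genes. That sequence holds 9 of the 44 replication, 7 of the 25 DNA damage and 5 of the 34 polymerase II genes. Of all placed genes that fell, 27.7% were there. Both sterol falls, Scap among them, were on the sequence rich in falls, which holds 4 of the 21 well-expressed sterol genes.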

How the data were processed

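RNA from exponential cultures was sequenced as stranded mRNA libraries. Per the study's methods and processing notes, the authors aligned reads with STAR 2.5.4b to the C_griseus_v1.0 genome and counted reads per gene with HTSeq 0.7.2. The deposited values are raw counts per gene, without normalization. Reads aligned to more than 1 place were not counted, so genes with near-identical copies are uncertain, and the strand setting of the counting is not given in the sources used here, so overlapping antisense transcripts cannot be told apart.

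The 8 A0 libraries were summed by culture number into 4 cultures and compared with 3 A1 cultures. The 5 summary lines of the counter were left out of library sizes. Of 28037 genes, 19946 were tested, those with a count of 1 or more in 2 or more cultures, with edgeR 4.0.16 in R 4.3.3 (TMM, quasi-likelihood F test, Benjamini-Hochberg adjusted p under 0.05). The SE of a log2 fold change is its size divided by the square root of F. On simulated counts for this comparison with 19435 genes, 99% of 200 genes changed 2-fold were recovered, with 9 false calls. The simulated counts had no split among the A0 cultures, and far fewer genes were changed than passed in the data. They therefore give no error rate for these cultures or for smaller changes.

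Named genes were the 12 largest rises and falls by fold, the 8 largest by difference in mean CPM, and up to 2 in each direction per list; some of them are not reported here. The members and lists were chosen with earlier results of these data known. Alternatives were DESeq2 1.42.0, its size factors, other filters, other choices of A0 libraries, all 6 groups in 1 fit, a replicate block and leaving out each culture. Gene order came from the RefSeq gene table of another assembly, CriGri-PICRH-1.0.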

Additional observations from a re-analysis of the deposited data

Results flagged for a closer look

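For 20 of the 271 genes looked at, 1 of the 4 A0 exponential cultures stood far from the others, measured as the gap to the nearest other culture divided by the whole range of the 4 (values in brackets). Chance alone gives such a gap in about 1 in 20 groups. Culture 1 lay above the other 3 A0 cultures for Mpc1 (0.831). Culture 1 lay below the other 3 A0 cultures for Sesn2 (0.881). Culture 2 lay above the other 3 A0 cultures for Hprt1 (0.864) and Plau (0.911). Culture 3 lay above the other 3 A0 cultures for Atf6 (0.833), Dusp1 (0.874) and Polr2a (0.838). Culture 3 lay below the other 3 A0 cultures for Pold1 (0.912) and Slc46a1 (0.839). Culture 4 lay above the other 3 A0 cultures for Col4a1 (0.838), Dnajc10 (0.892) and Map1lc3b (0.858). Culture 4 lay below the other 3 A0 cultures for Atic (0.969), Bcar1 (0.894), Cbx5 (0.872), Cdkn1a (0.89), Chek1 (0.903), Ndufa6 (0.835), Pfkfb3 (0.949) and Rpn2 (0.853). The sizes were unequal: Atic had 412 CPM in culture 4 beside 551 to 555 CPM in the others, and Sesn2 had 8.16 CPM in culture 1 beside 10.3 to 10.5 CPM, a gap far smaller than its rise in A1.

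Reads that did not align to the hamster genome were looked at because no gene comparison uses them. They made up 8.05% ± 0.58 of reads in the 3 A1 cultures and 3.85% ± 0.76 in the 4 A0 cultures, without overlap.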

How the results depend on the processing

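Genes past the threshold numbered 5163, and 3954 of them had a mean of 5 CPM or more. Leaving out single cultures gave 3160 to 6015 and 2408 to 4718, lowest without A1 replicate 3 (3160) and also low without A1 replicates 1 (3422) and 2 (3403), where fewer cultures were fitted. DESeq2 gave 5162, its size factors in edgeR 5177, another filter 5164, no filter 5271, the first A0 libraries alone 5715, all 6 groups in 1 fit 4324, A0 cultures 1 and 2 alone 7179, and A0 cultures 3 and 4 alone 4866. The labels do not say that culture numbers pair the lines. Deviations of same-numbered cultures correlated at 0.0286, 0.0653 and -0.0676, and those of other pairs at -0.155 to 0.119. So few values cannot settle whether the numbers pair the lines. A replicate block over cultures 1 to 3 gave 6213 genes, 4967 of them at 5 CPM or more. The same cultures without a block gave 6015 and 4718. Of the 271 genes looked at, 242 passed. A gene kept its status if it passed again in the same direction, or again did not pass. Of the 271, 175 kept their status under all 16 alternatives and 196 whenever a single culture was left out. Calr lost its call without A1 replicate 2 (adjusted p = 0.0566), as did Tyms without A1 replicate 1 or 3 (at most 0.0587), Slc19a1 without A0 replicate 2 or A1 replicate 1 or 3 (at most 0.101), and Axl without any 1 A1 replicate (at most 0.0779). The log2 fold change of Col4a1 reversed to -2.76 without A1 replicate 1 and was 3.37 without A1 replicate 3. Of the 90 counts of risen or fallen list members, 65 moved by over 1.5 times when 1 culture or another was left out and 51 with 1 pair of A0 cultures alone. The shares over all genes of 5 CPM or more moved in these fits as well. The cause was not tested.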
